A study of Aix galericulata with 8 samples.

Results

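The genes described here act in mitosis and in the folding of chromosomes: KIF23, CENPF, SMC2 and SMC3. The members are all gene models, the units of the authors' duck annotation, that carry one of these 4 symbols in either of the 2 deposited tables, with every gene model of a symbol kept. The rule found 5 gene models among the 864 rows of both tables. All 5 were among the 784 gene models of the epithelium table and 0 among the 80 of the pulp table. RNA was sequenced from regenerating sail feathers, the enlarged and asymmetric wing feathers of the male Mandarin duck (Aix galericulata), taken about 4 weeks after plucking in the breeding season. All birds were untreated wild-type males. The paper describes breeding-season sail feathers as those of adult males, and an age in months or years is not given in the sources used here. The labels of all 8 libraries read early growth, in season. The feathers were dissected into epithelium, the keratinocyte layer that forms the barbs, and pulp, the mesenchymal core, and each was split into its medial brown and lateral blue vane. This gave 4 groups, the epithelium of either vane and the pulp of either vane, each with 2 libraries and 8 in all. The labels call these libraries independent biological replicates, while the paper's methods name 2 males and also the neighbouring flight feather, so which bird and wing each library came from could not be settled.

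A cell that divides first packs its copied chromosomes, then attaches them to the spindle and at last cuts itself apart. Ring-shaped complexes built on SMC proteins act on the copied chromosomes: cohesin holds sister chromatids together, and condensin shortens each chromatid. Kinetochore proteins at the centromere then bind the spindle, and kinesins of the central spindle guide the final separation of the daughter cells. In a growing feather the dividing keratinocytes lie mostly at the base of the follicle, from where they supply the barb ridges. These roles are known mainly from other vertebrates and from cells in culture, and are given as background.

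The values that could be used here are average levels. For each gene model the deposited tables hold a log2 average CPM, that is, the reads assigned to it, scaled to the size of the library and averaged by the authors. The methods name TMM, which adjusts library sizes for differences in composition. The header does not say which libraries were averaged; with 1 table per tissue, the values are read here as averages within the tissue. With 0 columns for single libraries, sequencing depth, the level in each vane and the spread between replicates are unknown. A row in a table is itself the study's own call of a difference between the vanes of that tissue, so the members were selected on the p-values of that comparison as well as by their symbols. The columns of that comparison were not used, and no difference between medial brown and lateral blue vanes is reported. Genes were looked up by symbol. Of the 784 epithelium gene models 214 carry no symbol, and of the 80 pulp gene models 23 carry none. A listed gene described below as without a row may lie among these. CPM is not divided by gene length, and gene lengths were not used here, so an average CPM does not rank the abundance of one gene against another, and with the depth unknown it gives no number of reads.

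KIF23 is the kinesin of centralspindlin, the complex that bundles the microtubules between separating chromosomes and is needed for cytokinesis. It had 2 gene models in the epithelium table. The authors' average was 32.0 CPM for Mandarin_00203600. For Mandarin_00368400 it was 37.8 CPM, a log2 average CPM of 5.24. The averages lay 0.24 apart on the log2 scale, a ratio of 1.18, and no spread between libraries was at hand to judge that gap. Several gene models with 1 symbol were not rare in this table, where 46 of 499 symbols (9.22%) had more than 1. The identifiers of the KIF23 gene models are not neighbours, since those of 70 other gene models of the epithelium table fall between them. Whether they stand for 1 gene or more could not be settled without the annotation, so the level of KIF23 is uncertain to that extent. Among the other 18 listed genes of cytokinesis and the central spindle, SEPT7, a septin of the cell cortex, was the one with a row in the epithelium table, at an average of 85.5 CPM.

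CENPF is a large protein that gathers at kinetochores as cells enter mitosis. Its gene model, Mandarin_01154900, had an average of 37.3 CPM in the epithelium, a log2 average CPM of 5.22. Of the other 39 listed genes of centromere, kinetochore and spindle checkpoint, 2 had a row in the same table. They were NUF2, a subunit of the NDC80 complex that binds microtubules, at an average of 23.1 CPM, and SKA3, a subunit of the SKA complex at the same attachment site, at 16.5 CPM. For spindle proteins, 4 of 23 listed genes had a row. TACC3, which stabilises spindle microtubules, had an average of 107 CPM. The average was 24.2 CPM for TPX2, an activator of the kinase Aurora A, 21.3 CPM for NUSAP1, a microtubule-bundling protein, and 15.7 CPM for HMMR, a spindle-associated hyaluronan receptor. The kinesins of this list had no row under their symbol, which leaves KIF23 as the kinesin found by symbol in the whole mitosis list.

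SMC2 is one of the ATPase subunits of condensin and pairs with SMC4. Its gene model, Mandarin_01580700, had an average of 36.7 CPM in the epithelium, a log2 average CPM of 5.20. Of the 7 other condensin genes listed, its partner SMC4 had a row, at an average of 100.8 CPM, and so did NCAPG, a regulatory subunit of condensin I, at 36.8 CPM. In all, 3 of the 8 listed condensin genes had a row, SMC2 among them by the rule of selection. The others had none under their symbol.

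SMC3 is an ATPase subunit of cohesin and pairs with SMC1A. Its gene model, Mandarin_00190100, had an average of 56.6 CPM in the epithelium, a log2 average CPM of 5.82. Of the 18 other genes listed for cohesin and its regulators, STAG2, a subunit that docks on the ring, had a row, at an average of 12.4 CPM. The SMC5-SMC6 complex and other SMC proteins, with 7 listed genes, had 0 rows under their symbols. Of 32 listed cell cycle kinases, cyclins and proliferation markers, CDC25A, the phosphatase that activates cyclin-dependent kinases, had a row, at 62.1 CPM.

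**Figure D1:**
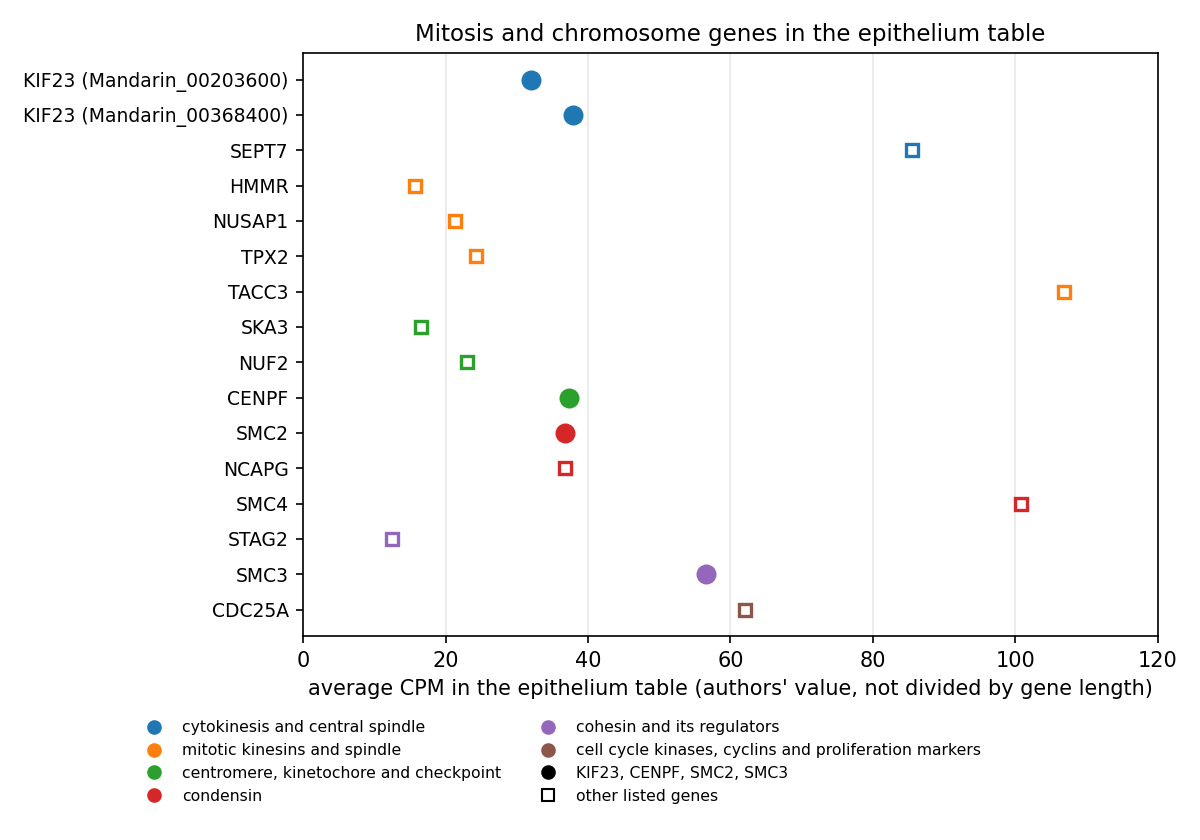
Average CPM (linear axis, the authors' average from the epithelium table, not divided by gene length) of each gene model of the mitosis and chromosome list that has a row in the epithelium table, 1 point each, coloured by role. Filled circles mark KIF23, CENPF, SMC2 and SMC3, which lie between 32.0 and 56.6 CPM, and open squares the 11 other gene models, which lie between 12.4 and 107 CPM; no error bars are drawn because the table has no values per library.

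Across the whole list of 148 genes in 7 roles, 15 symbols matched 16 gene models in the epithelium table and 0 matched any in the pulp table. Without KIF23, CENPF, SMC2 and SMC3 these were 11 of 144 genes. The epithelium table is far longer than the pulp table, and genes without a row are not analysed here. The number of gene models that the study tested is not given in the sources used here. The share of all tested gene models with a row is thus unknown, and no count by role can be set against it. These counts therefore measure neither enrichment nor a difference between the tissues.

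The averages of the 5 member gene models ran from 32.0 to 56.6 CPM with a median of 37.3 CPM, a log2 range of 0.82. The median over all 784 gene models of the epithelium table was 28.7 CPM, with quartiles at 11.3 and 57.9 CPM and extremes of 0.748 and 5013 CPM. All 5 member gene models were above that median and 0 were above the upper quartile. The second statement holds only with the KIF23 gene models kept apart. Added together, their averages give 69.8 CPM, which lies above the upper quartile and above SMC3. That quartile is of gene models kept apart, and it was not computed again with other symbols summed. KIF23 (Mandarin_00203600) had a higher average CPM than 54.6% of the gene models of the table, SMC2 than 58.9%, CENPF than 59.6%, KIF23 (Mandarin_00368400) than 60.3% and SMC3 than 73.1%. The 11 other listed gene models had a median of 24.2 CPM and ran from 12.4 to 107 CPM, beyond the members on both sides. These places describe gene models that the study had already selected, and not the genes expressed in the epithelium at large.

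**Figure D2:**
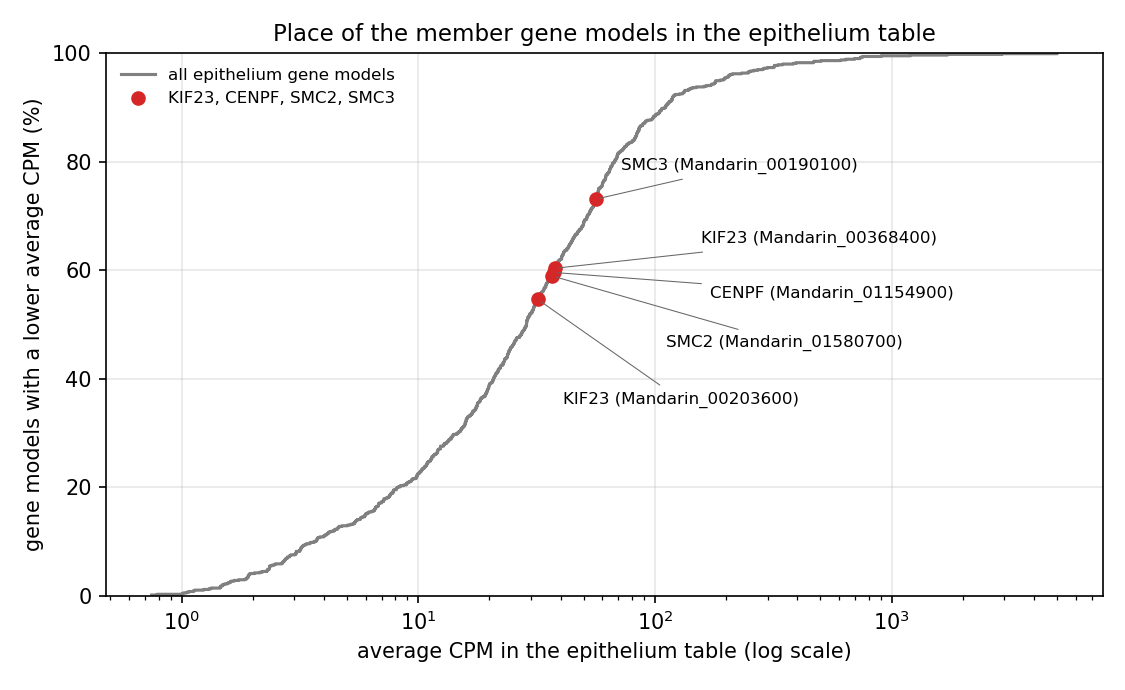
Share of the 784 gene models of the epithelium table with a lower average CPM (vertical axis, %) against average CPM (horizontal axis, log scale). The grey line follows all gene models and the red points mark the 5 member gene models, which sit on the upper middle of the curve, between 54.6% and 73.1%.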

How the data were processed

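Poly(A) RNA of 8 libraries was sequenced as single reads. According to the labels and the paper's methods, reads were aligned with STAR 2.4.1d, counted with HTSeq 0.6.0, normalized with TMM and compared between vanes within each tissue with edgeR by the authors. The paper cites a deposited Mandarin duck reference genome; a build name is not given in the sources used here. The methods name more than 1 sequencer model without assigning libraries, so a batch could not be examined. The authors deposited 2 tables with a log2 average CPM per gene model. Further columns hold the authors' own comparison (log2 fold change of brown over blue, p and FDR); these were not used, and every listed gene model passed the study's unadjusted threshold.

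Average CPM were obtained as 2 to the power of the deposited log2 values. For each member the share of gene models of its table with a lower value was counted. Symbols of a list of 148 genes in 7 roles were matched exactly. No test was run, because the tables hold 0 columns per library. The genes named with values are the members and every listed gene with a row; SMC1A is named in addition, as background, as the partner of SMC3. The members and lists were chosen with earlier results of these data known. Alternatives were the linear scale, summed gene models of a symbol, gene models with a symbol alone, an average CPM of at least 1, and older gene names. Tables were handled with pandas 2.3.3 and numpy 2.4.6 in Python 3.11.15, and plots were drawn with matplotlib 3.10.9.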

Additional observations from a re-analysis of the deposited data

How the results depend on the processing

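Adding the authors' averages of both KIF23 gene models gave 69.8 CPM, or 6.13 on the log2 scale. Kept apart, the gene models had 32.0 and 37.8 CPM. The sum lies above the upper quartile of the epithelium table, 57.9 CPM, while each gene model kept apart lies below it. That quartile was computed with all gene models kept apart, including those of other symbols with several. SMC2, CENPF and SMC3 had no further gene model under their symbol to add. Gene models without a symbol, or without a row, could not be added for any member. The linear scale is the same quantity. Limiting the table to gene models with a symbol or to an average CPM of at least 1 moved the place of each of the 5 members by at most 1.61 percentage points. The second of these left out only 2 of the 784 gene models, so it could change little. Older gene names left the list at 15 symbols in the epithelium table and 0 in the pulp table. No paired analysis was possible because the tables carry no value per library, and for the same reason no replicate could be left out. The depth per library is unknown, so no counting interval can be given for any average CPM.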
